A study of Mus musculus with 12 samples.

Results

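The genes described are the vomeronasal receptor genes, taken as every gene whose symbol begins with Vmn1r (type 1) or Vmn2r (type 2) followed by a number, with pseudogene symbols left out. The rule uses the symbol alone and no measured value. It found 76 of the 5764 genes in the table, 19 of type 1 and 57 of type 2. RefSeq annotates 231 type 1 and 126 type 2 symbols on the mouse build GRCm38.p6, and all 76 genes matched one of them. The other receptor symbols are not analysed here.

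RNA on ribosomes of POMC neurons, arcuate neurons that make appetite-suppressing peptides, was compared between 2 groups of fasted mice of the POMCRiboTag genotype. SENS mice were shown standard chow caged in wire mesh, which they could see and smell but not eat, for 10 min, and NEO mice were shown caged wooden pins for the same time. Every mouse in both groups had gone without food for 16 h, had spent 1 h getting used to the room, and was tested around zeitgeber time 6 h in its home cage, where mice lived in pairs or triplets. RiboTag mice make an HA-tagged ribosomal protein in cells that express, or once expressed, Cre recombinase, so cells that used the Pomc promoter only during development can carry the tag too. Ribosomes were pulled down from tissue enriched for the arcuate nucleus with an antibody against HA, and a low-input kit made the cDNA. Each group had 6 libraries, and no input or untagged library is analysed here. Nothing in the labels ties a library to its own mouse. The p-values therefore reflect the spread between libraries, and part of that spread may be technical. Fewer tagged cells and less RNA per cell cannot be told apart in such bulk samples. Pomc, Cartpt and the other POMC neuron markers are not analysed here, so the labelled cell type could not be checked against them.

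Vomeronasal receptors are G protein-coupled receptors best known from the vomeronasal organ, a chemosensory structure of the nose that detects pheromones and other social cues. Type 1 receptors sit in the apical neurons of that organ, couple to the G protein subunit Gαi2 and detect mainly small molecules such as steroids. Type 2 receptors sit in the basal neurons, couple to Gαo, carry a long extracellular N-terminal domain and detect mainly peptides and proteins. In both kinds of neuron the signal ends at the cation channel Trpc2. Receptor genes lie in tandem arrays of close relatives, and most neurons of the organ use a single receptor, except that Vmn2r1 to Vmn2r7 (family C) are made broadly, alongside another type 2 receptor. The hypothalamus is not their usual site.

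How alike these genes are bears on the values below, since a read from one of several near-identical copies can match them all. Likeness of the transcripts, where the reads fall, was not computed. The bases compared here lie before the start in the promoter entry, so they do not measure how many reads match several genes. RefSeq promoter entries were found for 70 of the 76 genes. The 100 bases before the start given by the promoter entry are shown for 4 sets of type 2 genes, 5′ to 3′ on the gene's strand. They were chosen from neighbours that held equal or close read values in 2 or more libraries, and not all such pairs are shown. Vmn2r85 and Vmn2r87, with the same fraction of a read in 4 libraries, had 83.0% identity over the promoter entries. Lower-case letters are bases shared with the first gene of a set and capitals are bases that differ from it. The first set lies on chromosome 7, with Vmn2r126 at chr7:43018698-43018797 (plus strand), Vmn2r62 at chr7:42793497-42793596 and Vmn2r57 at chr7:41448642-41448741 (both minus strand).
Vmn2r126: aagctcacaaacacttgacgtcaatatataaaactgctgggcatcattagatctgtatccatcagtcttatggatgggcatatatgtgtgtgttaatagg
Vmn2r62: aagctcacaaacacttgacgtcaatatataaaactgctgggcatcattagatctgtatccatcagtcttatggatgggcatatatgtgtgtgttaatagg
Vmn2r57: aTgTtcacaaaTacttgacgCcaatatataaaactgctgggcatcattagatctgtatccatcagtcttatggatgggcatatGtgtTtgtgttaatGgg
Vmn2r62 differed from Vmn2r126 at 0 of these bases and Vmn2r57 at 7.

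The second set is Vmn2r54 at chr7:12636135-12636234 and Vmn2r55 at chr7:12684992-12685091, both on the minus strand, which differed at 5 bases.
Vmn2r54: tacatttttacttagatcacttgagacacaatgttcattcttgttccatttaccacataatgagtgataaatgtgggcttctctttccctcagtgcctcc
Vmn2r55: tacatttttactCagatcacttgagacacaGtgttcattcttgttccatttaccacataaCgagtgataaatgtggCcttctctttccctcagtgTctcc
The third set is Vmn2r6 at chr3:64559819-64559918 and Vmn2r7 at chr3:64719603-64719702, family C genes on the minus strand, which differed at 2 bases. The start in the Vmn2r6 entry lies inside the longer annotated span of that gene (chr3:64537501-64565434), so its stretch is within the gene, while the others shown end at the annotated start.
Vmn2r6: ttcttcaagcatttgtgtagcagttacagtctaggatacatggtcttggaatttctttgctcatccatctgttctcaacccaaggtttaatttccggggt
Vmn2r7: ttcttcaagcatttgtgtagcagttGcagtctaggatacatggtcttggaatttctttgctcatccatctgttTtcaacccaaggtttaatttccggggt
The fourth is Vmn2r44 at chr7:8383239-8383338 and Vmn2r31 at chr7:7399628-7399727, both on the minus strand, which differed at 0 bases.
Vmn2r44: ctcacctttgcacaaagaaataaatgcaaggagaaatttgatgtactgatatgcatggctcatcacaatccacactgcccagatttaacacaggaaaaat
Vmn2r31: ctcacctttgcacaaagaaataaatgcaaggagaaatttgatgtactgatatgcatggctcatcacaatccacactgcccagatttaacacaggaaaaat

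The authors deposited CPM, counts scaled so that each library's column has the same total, so a value is relative to the other genes of the table in that library. One read was equated with the most common value above 0 in its library. By this measure the SENS libraries held 8619 to 18299 reads in the genes of the table, and 1 read was worth 54.6 to 116 CPM. The NEO libraries held 6901 to 11139 reads, and 1 read was worth 89.8 to 145 CPM. The full depth of the libraries is unknown. If a gene is at 0 over a whole group, its level may still be up to 3 reads, or 38.2 CPM for SENS and 58.8 CPM for NEO, a limit that covers counting error only. Because SENS libraries had more reads in the table, summed reads are given beside CPM.

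Few reads lay behind any receptor gene. The 76 genes together had 503 reads over the 12 libraries, 431 in type 2 genes and 71.5 in type 1 genes. Of the 76, 13 had none in any library (6 of type 1 and 7 of type 2), 19 had less than 1 read in all and 16 had 10 or more. No receptor gene was among the 100 genes with the highest mean CPM. Reads were present in both groups for 42 genes, in SENS libraries alone for 16 and in NEO libraries alone for 5. The same split over all genes was not computed, and SENS libraries held more reads in the table (78624, against 51054 in NEO). The counts of 16 and 5 are therefore no result about these genes. For 18 genes the reads came from a single library. Vmn2r46 on chromosome 7 and Vmn2r85 on chromosome 10 were above 0 in all 12 libraries. The genes at 0 throughout included whole stretches of neighbours. They were the 3 type 1 genes Vmn1r4, Vmn1r18 and Vmn1r24 at chr6:56923914-57956531, and the 5 type 2 genes Vmn2r111, Vmn2r112, Vmn2r114, Vmn2r115 and Vmn2r117 at chr17:22547941-23479597.

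**Figure D1:**
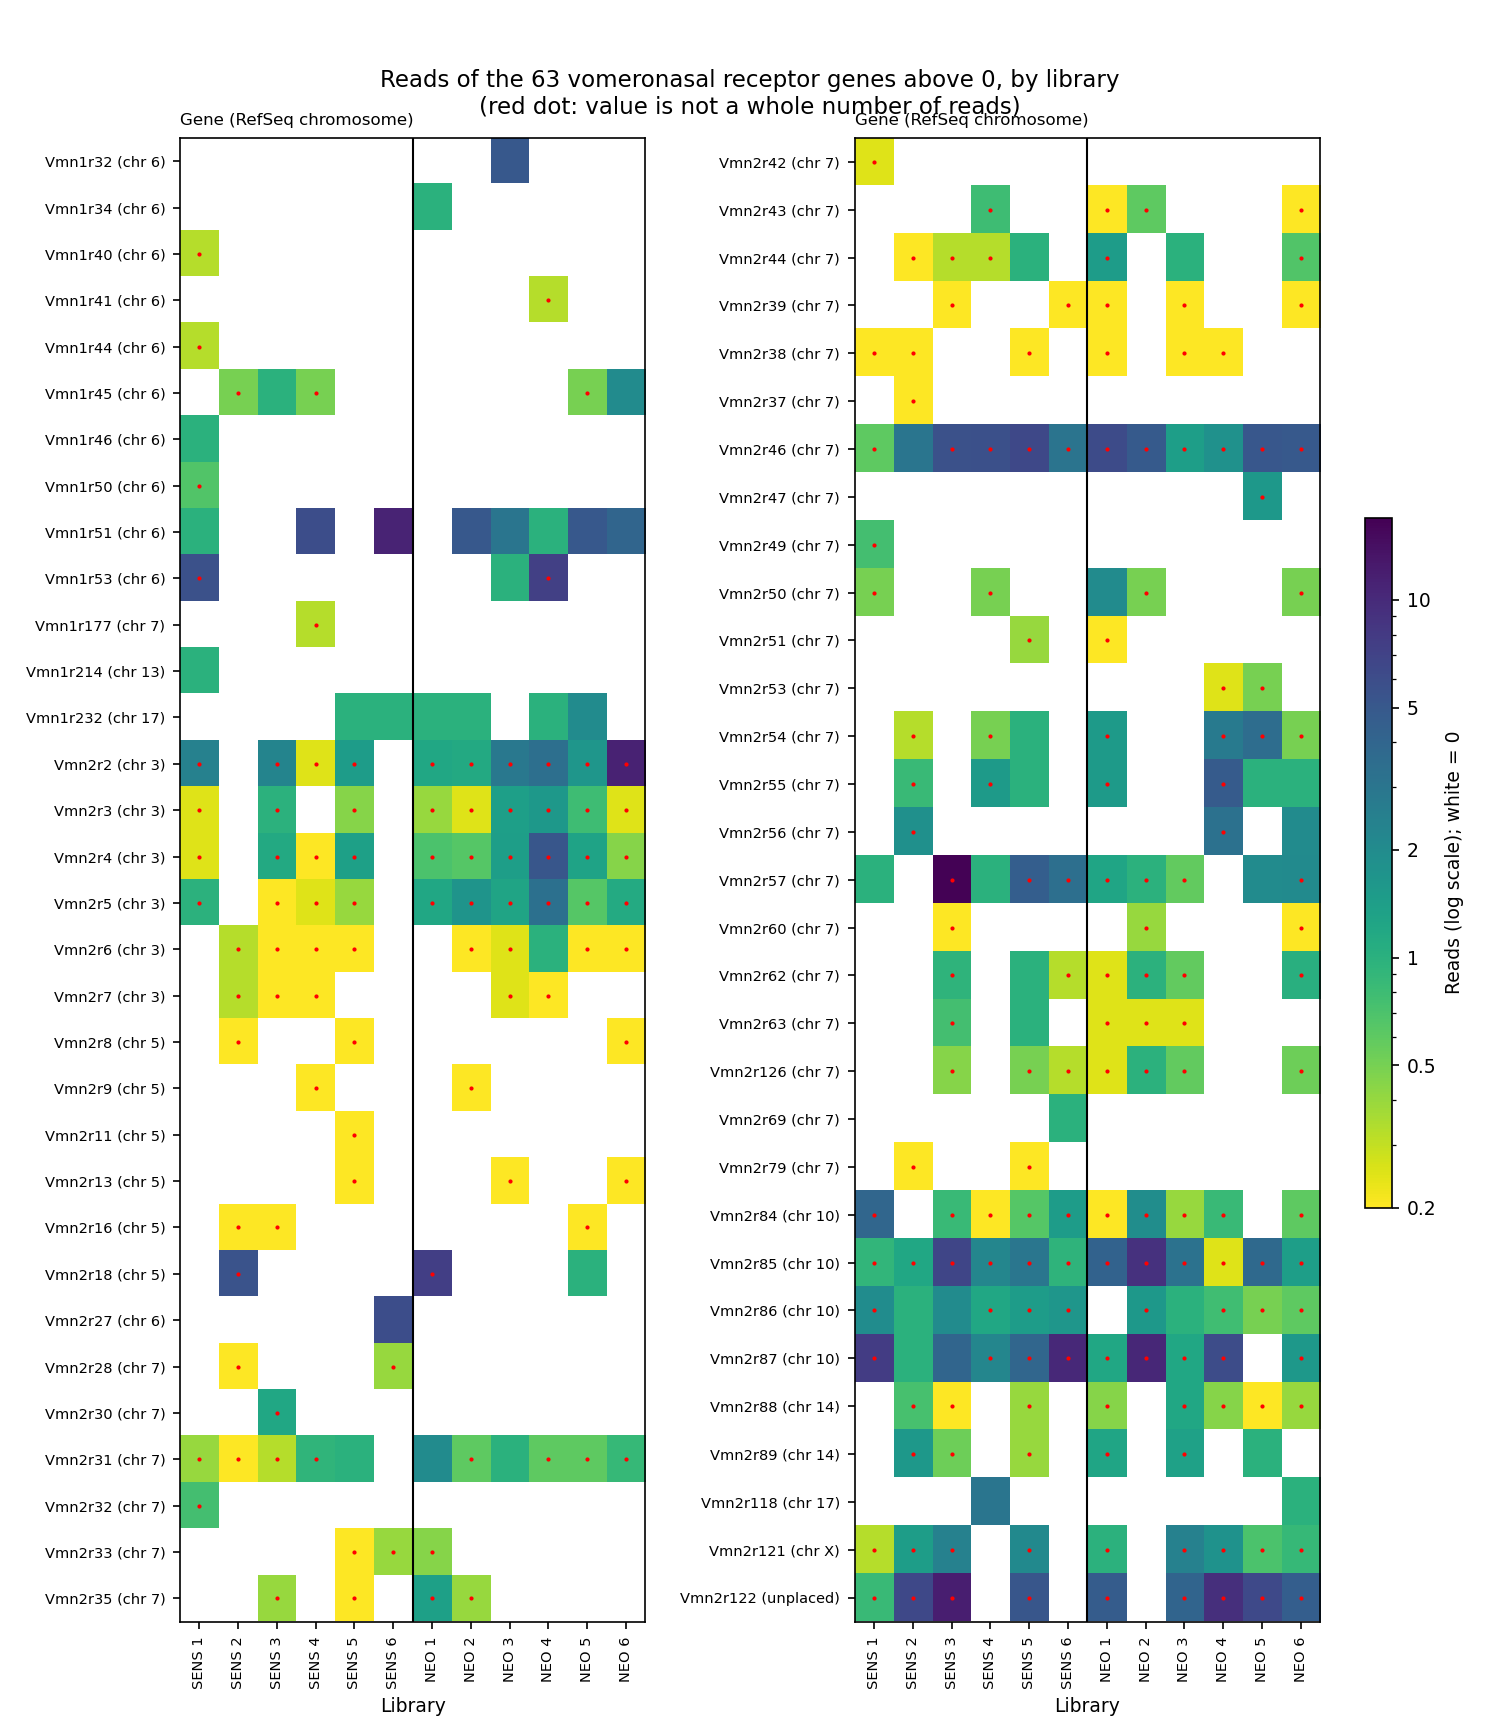
Reads of the 63 receptor genes above 0 (rows, with RefSeq chromosome) in the 6 SENS and 6 NEO libraries (columns), on a log colour scale with white for 0. Red dots mark values that are not whole reads, which fill most of the type 2 cells, and Vmn2r46 and Vmn2r85 are the rows filled in all 12 libraries.

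No receptor gene differed between SENS and NEO by the test across all genes. With limma on log2(CPM + 1), 0 of the 63 receptor genes with reads passed an adjusted p of 0.05, against 0% of the 5141 genes tested. The smallest adjusted p from limma was 0.745 among receptor genes and 0.728 over all genes. At an unadjusted p under 0.05, limma gave 0 receptor genes, against 3.68% of all genes (1.83% higher and 1.85% lower in SENS). Without the variance trend limma gave 4 receptor genes, Vmn2r2, Vmn2r3, Vmn2r4 and Vmn2r5, all lower in SENS, against 4.84% of all genes (1.95% lower in SENS). These 4 are neighbours with fractional values alone, so they are not independent results. Of the receptor genes 35 had a log2 fold change below 0 and 28 above, where 43% of all genes lay below. Their median was −0.53, beside 0.39 over all genes tested. The median standard error of a receptor gene's log2 fold change was 1.66, so most single-gene differences lay within their own error at this depth. By mean CPM, 38 of the 63 were lower in SENS, against 44.8% of all genes, and for 5 genes the mean and the log2 fold change had opposite signs. Split by family, the medians lay on opposite sides of 0, a difference that was not tested. Of 13 type 1 genes 6 lay below 0 and 7 above (median 0.44), and of 50 type 2 genes 29 lay below and 21 above (median −0.62). The type 1 median is the value of Vmn1r45, 0.44 ± 2.36 (SE), which changed sign under several alternatives. Its mean was lower in SENS, 25.6 CPM against 55.1 CPM in NEO. By mean CPM, 7 type 1 and 31 type 2 genes were lower in SENS, and 6 and 19 were higher.

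Summed over both families, receptor CPM was lower in SENS libraries. The sums were 3955, 1774, 4599, 2625, 3426 and 2256 CPM in SENS libraries (replicates 1 to 6), against 4417, 3923, 5199, 7276, 5811 and 5831 CPM in NEO libraries. The groups overlapped, and 4 of 6 SENS libraries lay below the lowest NEO library. The mean was 3106 ± 1075 CPM in SENS and 5410 ± 1188 CPM in NEO (SD, n = 6 each), a ratio of 0.574. The sum of reads averaged 39.0 ± 12.5 reads in SENS and 44.8 ± 6.92 reads in NEO, while the table totals were higher in SENS. A lower CPM of these genes and a higher signal of other genes in the same libraries cannot be told apart in these values. Since the genes were chosen with results of these data known, no test is given for a sum over them.

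The numbers in the library labels fall into 3 ranges, and the labels do not say what they stand for. Within them the summed difference, SENS minus NEO, was −462 CPM in the range with 1 library per group, −2467 CPM with 3 per group and −2980 CPM with 2 per group.

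Type 2 genes made up most of this sum. They came to 2795, 1742, 4524, 1989, 3343 and 1601 CPM in SENS libraries, against 4222, 3384, 3941, 6051, 4724 and 5056 CPM in NEO libraries. SENS 3 lay within the NEO range and the other 5 SENS libraries lay below it. The mean was 2666 ± 1129 CPM in SENS and 4563 ± 936 CPM in NEO (SD, n = 6 each). The difference, SENS minus NEO, was −1427, −1707 and −2418 CPM in the 3 label ranges. In reads the type 2 sum was 33.8 ± 14.6 in SENS and 38.1 ± 7.05 in NEO.

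Type 1 genes were more scattered. Their sums were 1160, 32.1, 75.0, 636, 83.1 and 656 CPM in SENS libraries, against 195, 539, 1259, 1225, 1087 and 775 CPM in NEO libraries. SENS 2, SENS 3 and SENS 5 had 1 read or less over all 19 genes, and the groups overlapped. The mean was 440 ± 454 CPM in SENS and 847 ± 423 CPM in NEO (SD, n = 6 each), a difference smaller than 1 SD of the SENS libraries. Within the label ranges it was 965, −760 and −561 CPM, so the direction was not the same in all 3.

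**Figure D2:**
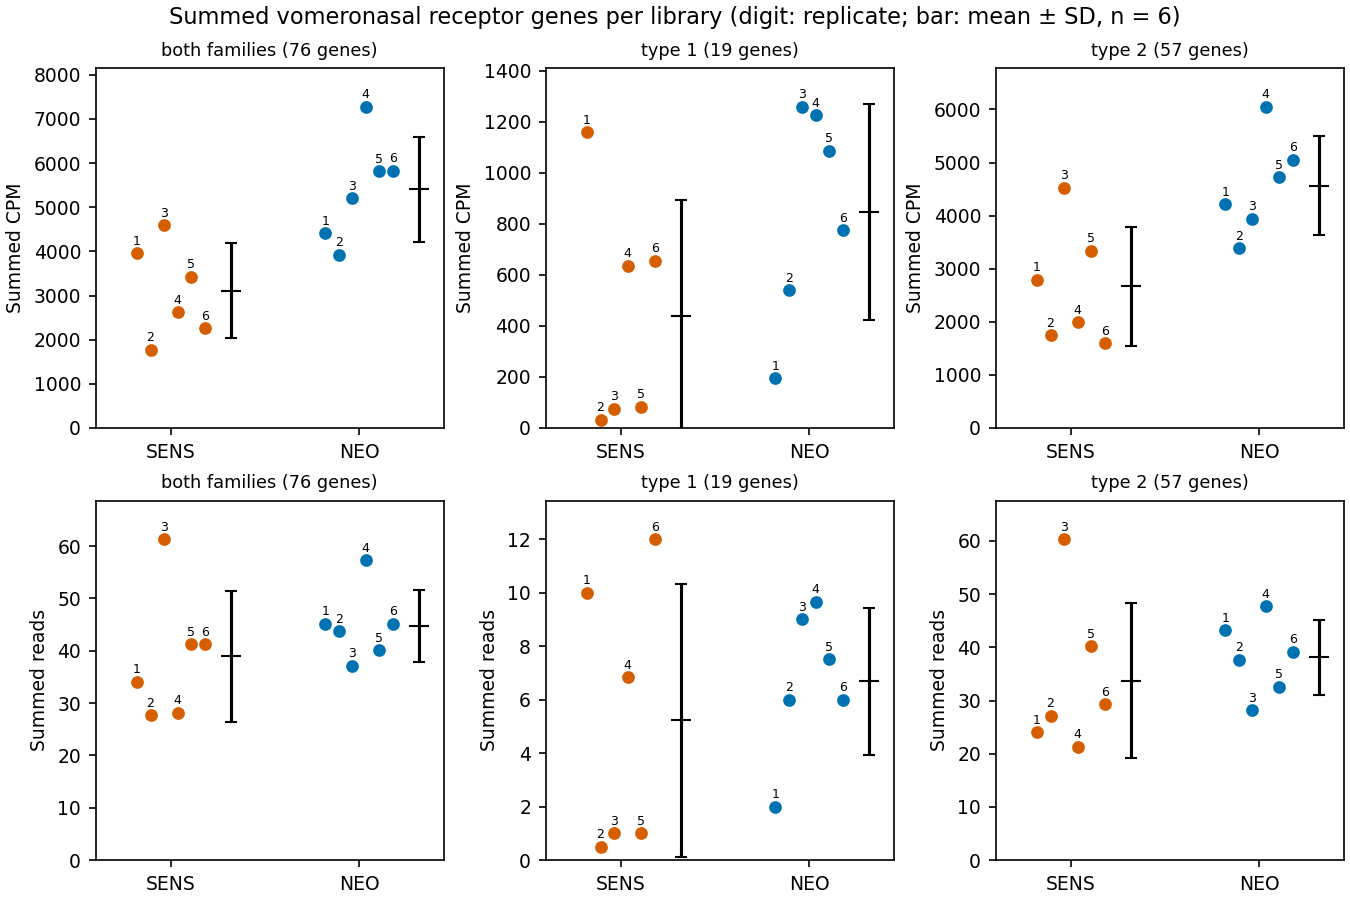
Summed CPM (top) and summed reads (bottom) of both families, type 1 and type 2 in each library. Dots are libraries with their replicate number and bars are the mean ± SD of 6 libraries, ending at 0 where the SD reaches below it. In CPM 5 of 6 SENS libraries lie below all NEO libraries for type 2, and in reads the groups overlap.

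The 6 family C genes in the table, Vmn2r2 to Vmn2r7 (chr3:64115730-64719602), had 4 SENS libraries below the lowest NEO library, more than any other run of neighbours. A run here is a set of genes of 1 family whose neighbouring starts are at most 1 Mb apart. Their sum was 450, 42.3, 376, 102, 320 and 0 CPM in SENS libraries, against 342, 355, 1039, 1857, 667 and 1691 CPM in NEO libraries. All 6 genes were at 0 in SENS 6, the library with the most reads, while NEO 4 and NEO 6 were highest. The mean was 215 ± 190 CPM in SENS and 992 ± 659 CPM in NEO (SD, n = 6 each), a ratio of 0.217. In reads this was 14.5 in all SENS libraries and 47.2 in all NEO libraries. Within the label ranges the difference was 108, −910 and −1019 CPM. Type 2 genes without these 6 averaged 2451 ± 983 CPM in SENS and 3571 ± 548 CPM in NEO. In reads the direction was the other way, at 188 in all SENS libraries and 181 in all NEO libraries.

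Vmn2r2 to Vmn2r5 were above 0 in 6 of 6 NEO libraries and in 3 or 4 SENS libraries. Vmn2r2 (chr3:64115730-64170917) had a lowest, median and highest CPM of 0, 71.9 and 278 in SENS, against 103, 321 and 1431 in NEO. The groups overlapped, and NEO 6 alone held 11.1 of the 21.3 NEO reads. Its log2 fold change of −3.72 ± 2.06 (SE) had the smallest unadjusted p of all receptor genes, 0.0738 with limma, and an adjusted p of 0.745. Vmn2r5 (chr3:64490783-64509609) had 0, 19.1 and 114 CPM in SENS, against 94.2, 149 and 416 CPM in NEO. Only SENS 1 reached the NEO range, with a log2 fold change of −3.93 ± 2.44 (SE) and an adjusted p of 0.745 with limma. Vmn2r4 averaged 41.0 ± 47.1 CPM in SENS and 205 ± 232 CPM in NEO, and Vmn2r3 23.3 ± 29.6 CPM in SENS and 101 ± 81.6 CPM in NEO. Both had overlapping groups and limma adjusted p-values of 0.745. Vmn2r6 and Vmn2r7, the pair with 2 differing bases above, had little signal, 0.93 and 0.73 reads in all SENS libraries, against 1.85 and 0.45 reads in all NEO libraries. No value above 0 of Vmn2r2 to Vmn2r5 was a whole number of reads.

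The other runs of neighbours varied in direction and size. The chromosome 10 run, Vmn2r84 to Vmn2r87 (chr10:130385800-130497379), averaged 830 ± 503 CPM in SENS and 931 ± 587 CPM in NEO, and 3 of its 4 genes had a log2 fold change above 0. In reads it had 60.3 in all SENS libraries and 50.8 in all NEO libraries. Vmn2r87 had 64.1, 314 and 903 CPM (lowest, median and highest) in SENS, against 0, 187 and 936 CPM in NEO, with a log2 fold change of 1.30 ± 1.51 (SE). Vmn2r86 was above 0 in 6 of 6 SENS and 5 of 6 NEO libraries and averaged 127 ± 56.5 CPM in SENS and 88.7 ± 52.9 CPM in NEO. Vmn2r85 lay the other way by its mean, with 198 ± 167 CPM in SENS and 404 ± 275 CPM in NEO. The groups overlapped for each of these genes.

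On chromosome 7, 17 genes between Vmn2r30 and Vmn2r51 (chr7:7312211-10105659) averaged 501 ± 257 CPM in SENS and 814 ± 392 CPM in NEO. Most of that signal was Vmn2r46, which had 0.60, 3.00, 5.60, 5.70, 6.50 and 3.10 reads in SENS libraries, against 6.20, 4.80, 1.40, 1.80, 5.10 and 4.93 reads in NEO libraries. Its totals were nearly equal, 24.5 reads in SENS and 24.2 in NEO, and its mean was 320 ± 202 CPM in SENS and 473 ± 225 CPM in NEO. Vmn2r31, whose 100 bases above match those of Vmn2r44, was above 0 in 5 SENS and 6 NEO libraries and averaged 42.3 ± 36.3 CPM in SENS and 111 ± 51.0 CPM in NEO (log2 fold change −2.20 ± 2.36 SE, limma adjusted p = 0.745).

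Elsewhere on chromosome 7, Vmn2r53 to Vmn2r56 (chr7:12581470-12733320) averaged 90.7 ± 99.7 CPM in SENS and 477 ± 528 CPM in NEO, a ratio of 0.190, and 6 of 6 SENS libraries lay below the NEO median. All 4 genes were at 0 in SENS 1, SENS 3, SENS 6, NEO 2 and NEO 3, and NEO 4 held 11 of the 22.5 NEO reads. Vmn2r54 and Vmn2r55 had 1.83 and 3.33 reads in all SENS libraries, against 8.25 reads each in all NEO libraries. In NEO 1 both stood at 1.50 reads. The chromosome 14 pair Vmn2r88 and Vmn2r89 (chr14:51411001-51461293) averaged 45.1 ± 59.2 CPM in SENS and 134 ± 128 CPM in NEO, a ratio of 0.337, with 5 of 6 SENS libraries below the NEO median and overlapping groups.

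The run from Vmn2r57 to Vmn2r126 (chr7:41399732-43048106) lay the other way, at 403 ± 533 CPM in SENS and 263 ± 161 CPM in NEO, and rested on SENS 3. Vmn2r57 had 1.00, 0, 16.5, 1.00, 4.50 and 3.33 reads in SENS libraries, against 1.25, 0.98, 0.58, 0, 2.00 and 2.03 reads in NEO libraries. Without SENS 3 its log2 fold change was −0.10, against 0.63 ± 2.11 (SE) with all libraries. In NEO 2 Vmn2r57, Vmn2r62 and Vmn2r126, the first set shown above, each stood at 0.98 reads, and in NEO 3 each stood at 0.58.

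**Figure D3:**
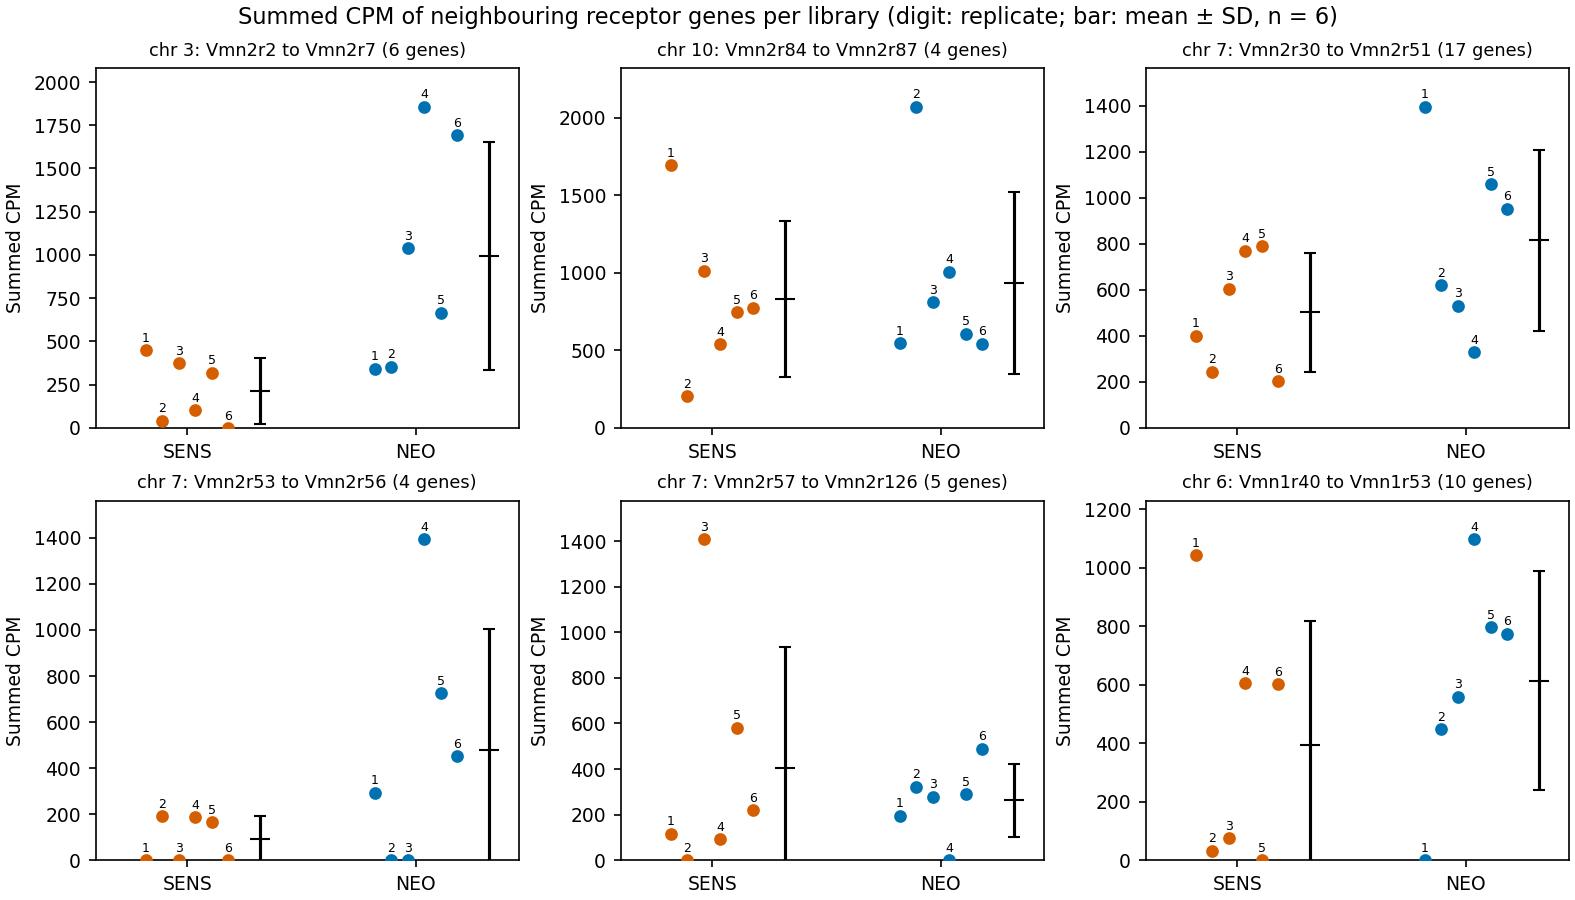
Summed CPM per library of 6 runs of neighbouring receptor genes, dots with replicate number and bars for the mean ± SD of 6 libraries, ending at 0 where the SD reaches below it. Vmn2r2 to Vmn2r7 average 215 CPM in SENS and 992 CPM in NEO, while the run from Vmn2r57 is highest in SENS 3.

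Vmn2r122, for which no position is given here, had more reads behind it than any other receptor gene, 24.1 in SENS and 28.9 in NEO. It had 0, 255 and 871 CPM (lowest, median and highest) in SENS, against 0, 574 and 1180 CPM in NEO. It stood at 0 in SENS 4, SENS 6 and NEO 2. Vmn2r121 on chromosome X was at 0 in the same 3 libraries and had 6.24 reads in SENS and 6.73 in NEO. Vmn2r122 had a log2 fold change of −2.23 ± 1.97 (SE) and an adjusted p of 0.745 with limma.

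Among type 1 genes, Vmn1r51 (chr6:90122643-90130645) was the only one above 0 in more than 6 libraries, and all its values were whole reads. It had 1, 0, 0, 6, 0 and 11 reads in SENS libraries, against 0, 5, 3, 1, 5 and 4 reads in NEO libraries, 18 in each group. By CPM it averaged 213 ± 288 in SENS and 373 ± 265 in NEO, with overlapping groups and a log2 fold change of −2.97 ± 2.43 (SE; limma adjusted p = 0.745). Vmn1r232 on chromosome 17 had single reads in 2 SENS libraries, against 5 reads over 4 NEO libraries, all whole. Vmn1r53 (chr6:90223317-90224438), in the same run as Vmn1r51, had 5.67 reads in SENS 1 alone among SENS libraries, against 1 in NEO 3 and 7.33 in NEO 4. Vmn1r45 had 2.00 reads in SENS and 2.50 in NEO.

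Most other type 1 signal came from 1 library each. Vmn1r32 had 5 reads in NEO 3 and Vmn1r34 had 1 in NEO 1. Vmn1r40, Vmn1r44, Vmn1r46, Vmn1r50 and Vmn1r214 had 0.33 to 1 read, all in SENS 1. SENS 1 held 7 of the 13 type 1 genes with reads, more than any other library, although it was the SENS library with the fewest reads. Type 2 genes seen in SENS alone included Vmn2r27, with 6 whole reads in SENS 6, Vmn2r30, with 1.20 reads in SENS 3, and Vmn2r28 and Vmn2r79, each at 0.20 to 0.40 reads in 2 libraries. Vmn2r53 was seen in NEO alone, at 0.25 reads in NEO 4 and 0.50 in NEO 5.

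Type 1 and type 2 genes differed in how many of their values were whole reads. Of the values above 0, 21 of 31 type 1 values (67.7%) were whole to within 0.005 reads, against 29 of 268 type 2 values (10.8%). Among all other genes 19584 of 23891 values (82.0%) were whole, and in olfactory receptor genes, the most similar large family, 108 of 165 (65.5%). The type 2 share was 0% to 20% in the 12 libraries and the share among all other genes was 76.7% to 83.4%, with no overlap. All values, fractional ones included, were multiples of 0.01 reads. The smallest value above 0 in every library was 0.20 reads, and 51 type 2 values stood exactly there. A value below 1 read made up 145 of the 268 type 2 values. Among genes, 6 type 1 and 3 type 2 genes had whole reads wherever they were above 0, while 5 type 1 and 32 type 2 genes had none. The other 2 type 1 and 15 type 2 genes had both kinds.

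**Figure D4:**
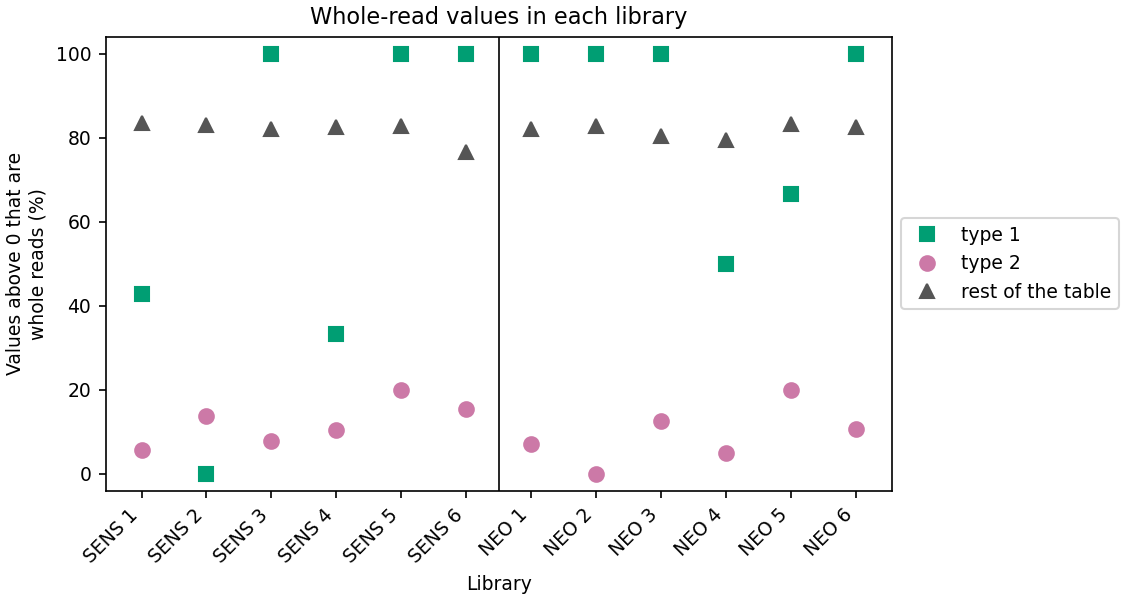
Share of values above 0 that are whole reads (percent, within 0.005 reads) in each library, for type 1 genes (squares), type 2 genes (circles) and the rest of the table (triangles). Type 2 lies between 0% and 20% in all 12 libraries and the other genes between 76.7% and 83.4%, while type 1 spans 0% to 100% on 1 to 7 values per library.

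Some pairs of close relatives had equal fractional parts. In 10 pairs of type 2 genes both genes had the same fractional part in at least 3 libraries, and 1586 other pairs did not. For 9 of the 10 pairs both genes lay in the same run of neighbours. Vmn2r57 and Vmn2r126 did so in 6 libraries, Vmn2r57 and Vmn2r62 in 5, and Vmn2r62 and Vmn2r126, Vmn2r6 and Vmn2r7, and Vmn2r85 and Vmn2r87 in 4 each. The exception was Vmn2r38 and Vmn2r85, on chromosomes 7 and 10. Over the promoter entries up to the start, the median identity was 94.8% for 9 of the 10 pairs, 89.4% for 155 other pairs within a run and 48.7% for 1214 other type 2 pairs not in the same run. At least 95% identity was found in 3 of the 10 pairs and in 32 other type 2 pairs, some of them without reads. Identity before the start does not measure likeness of the transcripts. How reads matching several genes were treated is not given in the sources used here, so the part that shared reads play in these fractions was not tested. Values of genes with fractions are therefore uncertain gene by gene.

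Genes with fractional values held most of the summed CPM in both groups, and nearly all of the type 2 difference lay in fractional values. The 54 genes with any fractional value summed to 2721 ± 1321 CPM in SENS and 4782 ± 1260 CPM in NEO, a ratio of 0.569. The 9 genes with whole reads alone summed to 385 ± 452 CPM in SENS and 628 ± 381 CPM in NEO, a ratio of 0.613, or 32 reads in all SENS libraries and 30 in all NEO libraries. They are 6 type 1 and 3 type 2 genes, so the 2 ratios compare different mixes of the families. In reads the ratios were 1.07 for these 9 genes and 0.846 for the 54. With whole values alone, the type 2 sum differed by −6.39 CPM, SENS minus NEO, against −1897 CPM with all values. Only 29 of the 268 type 2 values above 0 were whole, so they could hold little of any type 2 difference. In the 3 type 2 genes without a fractional value the direction was reversed. These 3 genes had reads in SENS 4, SENS 6 and NEO 6 alone, among them 6 reads of Vmn2r27 in SENS 6.

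Genes that act with these receptors were sparse. Of 31 genes listed for vomeronasal and olfactory signalling, 7 were in the table, and Trpc2, Gnao1 and Gnai2 are not analysed here. None of the 7 passed limma's adjusted p of 0.05. Omp, a protein of mature olfactory and vomeronasal neurons, had 82 reads over 5 SENS libraries (28 in SENS 3 and 32 in SENS 6), against 30 reads over 3 NEO libraries (log2 fold change 3.22 ± 2.10 SE, limma adjusted p = 0.745). Gng8, a G protein γ subunit of vomeronasal neurons, had 39 reads over 6 SENS libraries (21 in SENS 6), against 9 over 3 NEO libraries (log2 fold change 4.15 ± 2.17 SE, limma adjusted p = 0.745). These 2 lay in the direction opposite to the summed receptor CPM. Cnga2, the cyclic nucleotide-gated channel of olfactory neurons, averaged 420 ± 556 CPM in SENS and 1377 ± 1210 CPM in NEO. Ano2, a calcium-activated chloride channel, was above 0 in 2 SENS libraries, with 51.5 of its 56.5 SENS reads in SENS 3, and in 5 NEO libraries (log2 fold change −5.44 ± 2.29 SE, limma adjusted p = 0.745). It was the only gene of the list with an unadjusted limma p under 0.05, beside 3.68% of all genes.

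Other chemosensory families were given the same count. Of 72 olfactory receptor genes tested, 42 had a log2 fold change above 0 and 30 below, beside 57% above over all genes, with a median of 0.89 and none with an unadjusted limma p under 0.05. Their sum was 3625 ± 1106 CPM in SENS and 3970 ± 1873 CPM in NEO, a ratio of 0.913, beside 0.574 for the vomeronasal receptors. In reads the ratio was 1.38 (278 in SENS and 202 in NEO), beside 0.870 for the vomeronasal receptors. Whether the 2 families differ in this was not tested. Of 14 Ms4a genes tested, a family that includes receptors of necklace olfactory neurons, 12 lay above 0 and 2 below, where 57% of all genes lay above, and 1 had an unadjusted limma p under 0.05, beside 3.68% of all genes. They had 247 reads in SENS and 71 in NEO, and 160 in SENS without SENS 6. Their sum was 2918 ± 1211 CPM in SENS and 1397 ± 697 CPM in NEO. Whether the Ms4a reads came from olfactory cells, immune cells or others was not tested. The 4 formyl peptide receptor genes, a family with members in immune cells and others in vomeronasal neurons, had 61.2 reads in SENS and 8 in NEO. SENS 6 alone held 46.2 of the SENS reads, and the SENS total without it was 15.0, while NEO 1 held 6 of the NEO reads. The H2-Mv genes, MHC class I-like genes of basal vomeronasal neurons, had 6 reads in SENS, 4.60 of them in SENS 3, and 9 in NEO over the 6 of 9 listed genes in the table. Mup genes, which encode major urinary proteins that carry pheromones, numbered 14, with 73.2 reads in SENS and 8.38 in NEO. SENS 4 held 43.0 and SENS 6 held 25 of the SENS reads, and the SENS total was 30.2 without SENS 4 and 48.2 without SENS 6. In CPM the sums were 627 ± 941 in SENS and 145 ± 227 in NEO for the formyl peptide receptor genes. They were 72.1 ± 136 and 191 ± 187 for the H2-Mv genes, and 974 ± 1569 and 171 ± 146 for the Mup genes. Log2 fold changes lay above 0 for 3 of 4 formyl peptide receptor, 3 of 5 H2-Mv and 6 of 12 Mup genes tested, beside 57% of all genes. Limma called 0 genes in each of these families. No trace amine receptor gene is analysed here.

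Markers of other tissue were present. The 5 listed pituitary genes (Prl, Gh, Tshb, Lhb and Pou1f1) had 180.2 reads in SENS, 105.2 of them in SENS 4, against 39.2 in NEO. Without SENS 4 the SENS total was 75.0. Their summed level was 64.1 to 9796 CPM in SENS libraries and 380 to 1398 CPM in NEO libraries. Of 5 markers of microglia and macrophages only Ptprc was in the table, with 107 reads in SENS, 45 of them in SENS 5, and 22 in NEO, 11 of them in NEO 6. Its level was 0 to 3737 CPM in SENS libraries and 0 to 1420 CPM in NEO libraries. Astrocyte, oligodendrocyte, endothelial and tanycyte markers are not analysed here. The part of other cells in the receptor values was not tested.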

How the data were processed

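RNA pulled down with tagged ribosomes was measured in 12 libraries, 6 SENS and 6 NEO, grouped by their titles. The authors deposited CPM values for 5764 genes, per the file headers, and all 12 columns were used. Tools named per the submitters' processing notes are FastQC, HISAT2, featureCounts and edgeR, with the builds mm10 and GRCm38. The sources used here do not give versions, the gene filter, strand use or how reads with several matches were handled.

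One read was taken as the most frequent CPM above 0 in a column, and a value was called whole within 0.005 reads. CPM are not counts, so limma 3.58.1 (R 4.3.3, moderated variance with trend) was fitted to log2(CPM + 1) over all genes whose mean was 1 CPM or more, with no covariate, two-sided, and with Benjamini-Hochberg adjustment over all genes. Fold changes are on that scale. The pseudocount of 1 CPM is far below 1 read, which was worth 54.6 to 145 CPM. Where libraries stand at 0, fold changes therefore depend on the pseudocount and can be larger than the ratio of the means. For Vmn1r51 the log2 fold change was −2.97, and −0.84 with a pseudocount of 100. Adjusted p-values under 0.05 were called. The fit was tested on simulated data. Positions and promoter entries come from RefSeq (GRCm38.p6), matched by symbol. Identity between promoter entries was computed with Biopython 1.88 over the 250 bases before the start.

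The receptor genes and gene lists were chosen with earlier results of these data known. Genes named by rule were Vmn2r2 to Vmn2r7, in each family the 6 with the most reads, the 4 per direction with the smallest unadjusted p, and those above 0 in at least 6 libraries of a group. Vmn1r44, Vmn2r54, Vmn2r55, Vmn2r56, Vmn2r62, Vmn2r126, Vmn2r121, Vmn2r44, Vmn2r38, Vmn2r84, Vmn2r88, Vmn2r89 and the genes at 0 were named after their values were seen. Alternatives were the pseudocount, the filter on low values, the variance trend, quantile scaling, blocks by replicate number and by label range, sums outside the 100 highest genes, whole reads alone, and leaving out each library.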

Additional observations from a re-analysis of the deposited data

Results flagged for a closer look

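In 19 of 61 groups of 6 libraries checked, the highest library stood apart from the other 5 by Dixon's test, which chance does in about 1 in 20 groups. These groups hold few reads and many zeros, and a single read can stand apart from 5 zeros.

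Among family C genes, Vmn2r2 reached 1431 CPM in NEO 6 and Vmn2r4 reached 660 CPM in NEO 4. Vmn2r5 reached 114 CPM in SENS 1 among SENS libraries and 416 CPM in NEO 4 among NEO libraries, and Vmn2r6 reached 127 CPM in NEO 4. Vmn2r57 reached 1233 CPM in SENS 3, Vmn2r27 reached 328 CPM in SENS 6 and Vmn2r30 reached 90.0 CPM in SENS 3.

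Among type 1 genes, Vmn1r53 reached 658 CPM in SENS 1 and 930 CPM in NEO 4. Vmn1r32 reached 699 CPM in NEO 3, Vmn1r45 reached 258 CPM in NEO 6 and Vmn1r34 reached 97.7 CPM in NEO 1. In SENS 1, Vmn1r46 and Vmn1r214 each stood at 116 CPM, Vmn1r50 at 77.7 CPM and Vmn1r40 at 38.3 CPM, which is 1 read or less for each of these 4 genes. Of the signalling genes, Cnga2 reached 1499 CPM and Ano2 reached 3861 CPM, both in SENS 3.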

How the results depend on the processing

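No gene was called under any alternative tried. Receptor genes with an unadjusted limma p under 0.05 numbered 0, beside 3.68% of all genes. They numbered 4 with no filter and 4 with no variance trend (Vmn2r2, Vmn2r3, Vmn2r4 and Vmn2r5 in both, lower in SENS, where no trend gave 4.84% of all genes), and 1 with quantile scaling (Vmn2r5). Leaving out 1 library gave 0 to 1, the 1 being Vmn2r122 without NEO 2. For no filter, quantile scaling and leaving out 1 library the share over all genes was not computed, so those counts cannot be set against it. Vmn2r2 to Vmn2r5 are neighbours with fractional values alone, so they are not 4 independent results. The median log2 fold change of the receptor genes was −0.53, and 0 with no filter, −1.61 at a mean of at least 50 CPM, −1.21 with quantile scaling and −0.88 to −0.053 on leaving out 1 library (−0.053 without NEO 1). The type 2 difference in summed CPM, −1897, was −6.39 with whole reads alone and −2269 to −1600 on leaving out 1 library. It reversed to 88.8 in the 3 type 2 genes without a fractional value, which had reads in SENS 4, SENS 6 and NEO 6 alone. For both families −2303 became −392 with whole reads alone and −243 in genes without a fractional value, and −2602 to −1930 on leaving out 1 library. On leaving out 1 library, type 1 ranged from −550 to −324 and Vmn2r2 to Vmn2r7 from −907 to −604. For the alternatives with moved values the cause was not tested, apart from the fewer values or genes that they use.

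Of 662 values of 32 named genes under alternatives, 646 kept their sign and 0 were called. The filters, the variance trend and the blocks by replicate number and label range cannot change a log2 fold change here. The signs under those settings were therefore fixed in advance, and only the other alternatives could reverse a value. The reversed values were Vmn1r45 at −0.022 and −0.14 (pseudocounts of 10 and 100), −0.29 (quantile scaling) and −0.25, −0.0057, −0.11 and −0.032 (leaving out 1 library, range −0.25 to 1.57), Vmn2r7 at −0.0056 (pseudocount of 100) and −1.24 (quantile scaling), Vmn2r57 at −0.57 without NEO 4 and −0.10 without SENS 3 (range to 1.95), Vmn1r53 at 0.13 without NEO 4 (range from −2.83) and Vmn2r87 at −0.082 without NEO 5 (range to 1.89).

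The replicate numbers gave no sign of pairing the libraries. The correlations of same-numbered deviations lay between −0.032 and 0.082, and only replicate 2 correlated best with its own number. Any 2 libraries correlated at 0.20 to 0.44, so a pairing could go unseen. With the replicate number as a block 0 genes were called and 0 receptor genes had an unadjusted limma p under 0.05. The median, −0.53, could not change under this block, since both groups hold every replicate number. By number, the summed CPM of both families was lower in SENS in 6 of 6 pairs, and in 5 of 6 for type 1, for type 2 and for Vmn2r2 to Vmn2r7. These pairs follow the numbers alone, so the counts are no measure of consistency, and the groups overlapped for each sum.

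Totals of gene lists without single libraries, a wider tolerance of 0.02 reads and sums without SENS 2 and SENS 6 were added after seeing the data. The small number of reads limits every single-gene value.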
